A study of Mus musculus with 111 samples.

Results

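Striatal astrocytes of zQ175 mice were compared with those of wild-type (WT) littermates at 12 months of age. The comparison held 4 zQ175 samples (numbered 30 to 33 in the labels) and 4 WT samples (34 to 37), 8 of the 111 samples of the series, and was described across all genes. The sample labels write the genotype as Q175, and zQ175 is the name in the series' design text. Other samples came from zQ175 mice and WT mice at 6 months, and from R6/2 mice and WT mice at 6 and 12 weeks of age. Each sample was total RNA from striata pooled by litter and genotype after the subventricular zone had been removed. The cells were dissociated with papain, passed over Percoll and sorted by antibodies to GLT1, an astrocyte glutamate transporter, and CD11b, a microglial integrin. Astrocytes were the GLT1+/CD11b- cells, microglia the GLT1-/CD11b+ cells, and the remaining GLT1-/CD11b- cells formed a negative fraction. Each sample is therefore a pool of animals and the spread given is that between pools.

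Huntington's disease is caused by an expanded CAG repeat in the huntingtin gene and damages the striatum early. The zQ175 line is a knock-in that carries the expanded repeat in the mouse Htt gene in every cell, while R6/2 mice carry a transgenic fragment of the human gene and fall ill much earlier. Astrocytes clear glutamate and GABA, buffer potassium, supply lipids and lactate to neurons and exchange signals with vessels and synapses, and they can take on reactive states in disease. Expression was measured on Affymetrix arrays and is given as log2 RMA values, so a difference of 1 is a change of 2-fold. Changes are given as log2 fold changes, zQ175 minus WT. Levels are compared between samples for a gene and not between genes. In such bulk samples, fewer cells of a type and less RNA per cell cannot be told apart.

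The sort and the labels were checked first. The astrocyte markers averaged 12.49 ± 0.05 in zQ175 and 12.59 ± 0.03 in WT astrocytes (SD, n = 4 each), against 8.53 ± 0.20 and 8.44 ± 0.64 in zQ175 and WT microglia. The homeostatic microglia markers averaged 5.68 ± 0.18 in zQ175 and 5.56 ± 0.18 in WT astrocytes, and Itgam, which encodes CD11b, had levels of 3.33, 3.13, 3.24 and 3.34 in zQ175 samples, against 3.10, 3.42, 3.35 and 3.09 in WT samples, below the filter on dim genes. The oligodendrocyte markers averaged 12.26 ± 0.09 in zQ175 and 12.13 ± 0.20 in WT astrocytes, so the GLT1+ fraction also held oligodendrocyte RNA. Their mean per sample was 12.16, 12.28, 12.36 and 12.23 in zQ175, against 11.86, 12.15, 12.21 and 12.31 in WT. The endothelial and mural markers averaged 8.63, 7.15, 8.81 and 8.83 in zQ175 samples, against 9.52, 8.55, 8.54 and 8.18 in WT samples, with zQ175 sample 31 low and WT sample 34 high. The pan-neuronal markers lay at 7.60 to 7.74 in zQ175 samples, against 7.23 to 7.48 in WT samples, and did not overlap, although 10 of the 16 tested members had a negative log2 fold change. Htt itself had levels of 7.89, 8.42, 8.25 and 8.40 in zQ175 samples, against 8.61, 8.63, 9.14 and 8.60 in WT samples, and its log2 fold change was -0.50 ± 0.20 (SE), adjusted p = 0.161, which did not pass the test. Slc1a2, which encodes GLT1, differed by -0.17 ± 0.07 (SE), adjusted p = 0.164. Pearson correlations between samples over 18194 genes were 0.9903 to 0.994 within zQ175, 0.9857 to 0.9945 within WT and 0.9786 to 0.9926 between the groups.

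**Figure D1:**
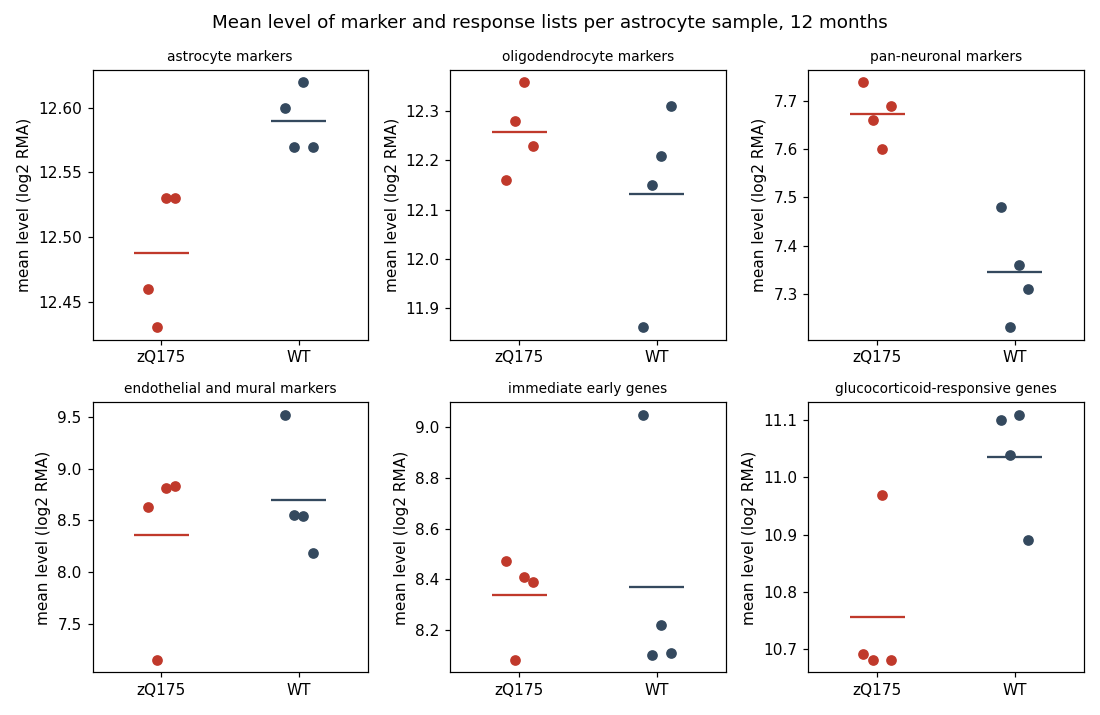
Mean log2 RMA level of 6 gene lists in each of the 4 zQ175 and 4 WT astrocyte samples at 12 months (points), with the group mean as a bar and a separate vertical range in each panel. The astrocyte and pan-neuronal lists do not overlap between the groups (10 of the 16 pan-neuronal markers tested had a negative log2 fold change), while zQ175 sample 31 is lowest for endothelial and mural markers (7.15) and WT sample 34 is highest for immediate early genes (9.05).

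Of 12380 genes tested, 731 (5.9%) passed an adjusted p of 0.05 by limma with Benjamini-Hochberg adjustment. Of these, 536 (4.33%) were higher and 195 (1.58%) lower in zQ175 astrocytes. Higher genes had larger changes, with a median log2 fold change of 0.72 against -0.49 for lower genes, and 149 higher and 11 lower genes passed 2-fold. The median log2 fold change of all genes tested was 0.02, and 54.1% of them had a positive value. The shares of 5.9% called and 54.1% positive are the background for the gene lists below. The 4 zQ175 and 4 WT samples did not overlap for 1573 genes (12.7% of those tested), among them 487 of the higher and 179 of the lower genes. The number of calls depended on single samples. It was 335 without zQ175 sample 31, 357 without zQ175 sample 32, 367 without WT sample 34 and 451 without WT sample 35, and 221 higher and 53 lower genes were called in all 8 omissions. It was 357 when only the 8 samples at 12 months entered the fit and 1657 with array weights. With a marker mean as a covariate, it was 422 for the oligodendrocyte markers and 639 for the endothelial and mural markers.

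**Figure D2:**
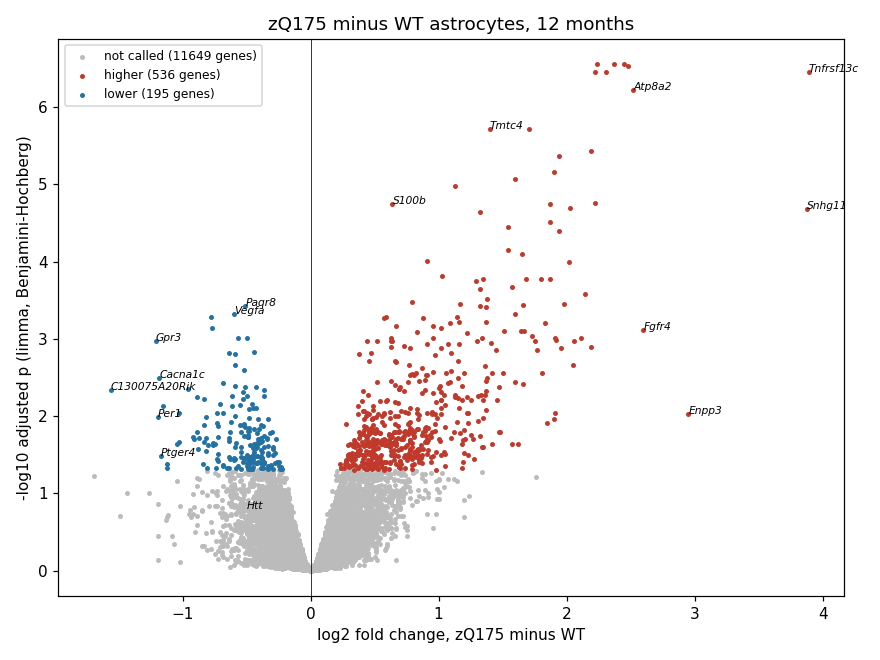
Log2 fold change (zQ175 minus WT astrocytes, 12 months) of 12380 genes against -log10 of the adjusted p. The 536 called higher genes (red) reach a log2 fold change of 3.89 (Tnfrsf13c), and the 195 called lower genes (blue) reach -1.56 (C130075A20Rik).

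Tnfrsf13c, which encodes the BAFF receptor known from B cells, had levels of 9.96, 10.44, 10.25 and 10.23 in zQ175 samples, against 5.95, 5.92, 6.48 and 6.96 in WT samples. Its log2 fold change was 3.89 ± 0.25 (SE), adjusted p = 3.47e-07. Snhg11, a long non-coding RNA gene expressed in neurons, had levels of 8.64, 8.38, 8.70 and 8.51 in zQ175 samples, against 4.90, 4.55, 4.19 and 5.06 in WT samples. Its log2 fold change was 3.88 ± 0.37 (SE), adjusted p = 2.08e-05. Uchl1, a deubiquitinase abundant in neurons, had levels of 11.26, 11.44, 11.34 and 11.05 in zQ175 samples, against 8.44, 8.84, 8.73 and 9.16 in WT samples. Its log2 fold change was 2.48 ± 0.15 (SE), adjusted p = 2.94e-07. For these 3 genes every zQ175 sample lay above every WT sample. Insm1, a zinc-finger factor of neuroendocrine and neuronal precursors, had levels of 7.31, 7.51, 7.39 and 7.42 in zQ175 samples, against 5.32, 4.86, 5.08 and 4.90 in WT samples, with a log2 fold change of 2.37 ± 0.14 (SE), adjusted p = 2.77e-07. Il17b, a cytokine of the interleukin-17 family, had levels of 6.82, 6.89, 7.06 and 6.71 in zQ175 samples, against 4.66, 4.64, 4.48 and 4.71 in WT samples, a difference of 2.24 ± 0.13 (SE), adjusted p = 2.77e-07. Both genes had narrow spreads in each group, but their WT levels, like those of Snhg11, lay under the filter on dim genes (log2 5.44). The filter was set on the mean over all 16 samples of the fit, zQ175 included. A narrow spread among such dim WT values therefore carries little weight. Abhd1, an alpha/beta hydrolase domain gene, had levels of 10.40, 10.43, 10.03 and 10.05 in zQ175 samples, against 8.05, 7.82, 8.21 and 7.94 in WT samples, and rose by 2.22 ± 0.15 (SE), adjusted p = 3.47e-07.

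The other increases among the 12 largest were those of Atp8a2, a phospholipid flippase (2.52 ± 0.17 (SE), adjusted p = 6.02e-07), Fibin, a secreted factor (2.45 ± 0.15 (SE), adjusted p = 2.77e-07), and Tmem132c (2.31 ± 0.15 (SE), adjusted p = 3.47e-07). Fgfr4, a fibroblast growth factor receptor, rose by 2.60 ± 0.36 (SE), adjusted p = 0.00077, and Cldn14, a tight junction protein, by 2.22 ± 0.21 (SE), adjusted p = 1.72e-05. Enpp3, an ectonucleotidase, rose by 2.95 ± 0.59 (SE), adjusted p = 0.00936, with levels of 7.60, 8.41, 7.85 and 8.29 in zQ175 samples, against 3.34, 4.11, 6.52 and 6.39 in WT samples, where WT samples spread widely.

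**Figure D3:**
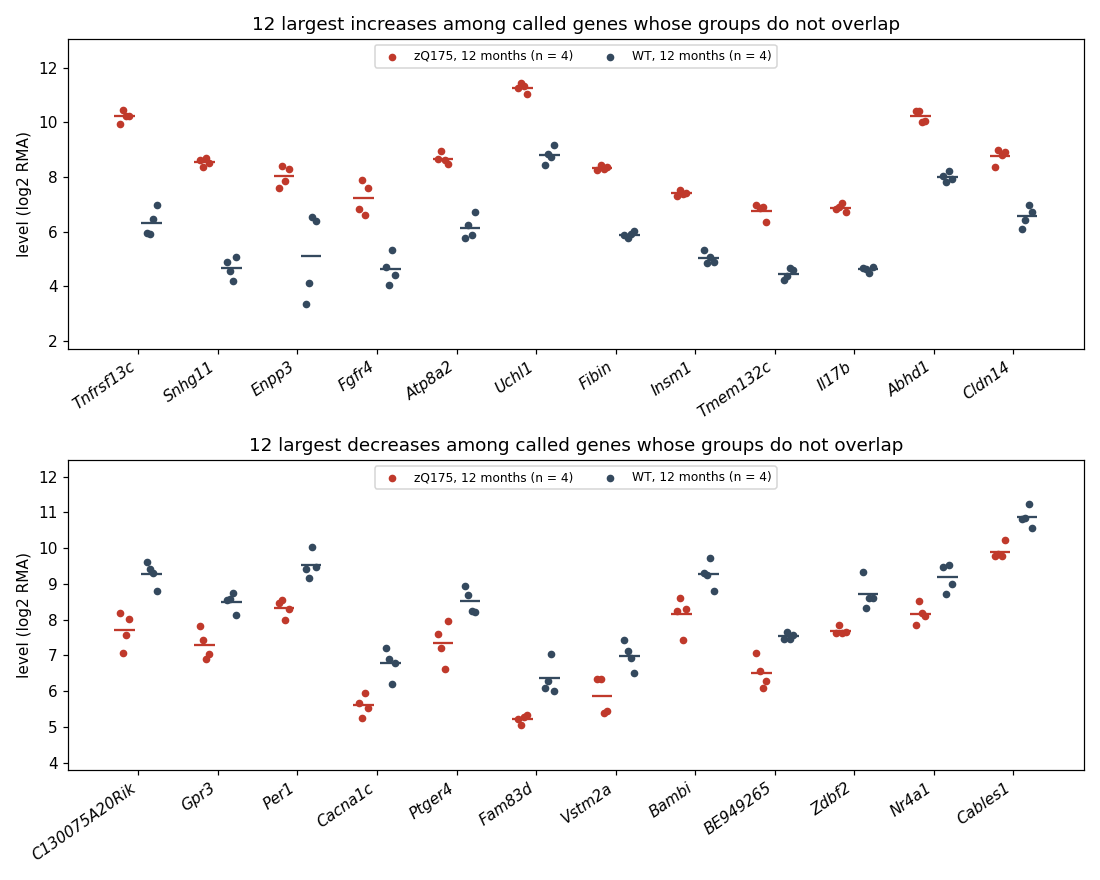
Log2 RMA level of the 12 genes with the largest positive and the 12 with the largest negative log2 fold change among called genes whose groups do not overlap, in each zQ175 (red) and WT (dark) astrocyte sample at 12 months, with bars at the group means. The changes in the upper panel (2.22 to 3.89) are larger than those in the lower panel (-0.96 to -1.56).

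The decreases were smaller. C130075A20Rik had levels of 8.19, 7.07, 7.57 and 8.03 in zQ175 samples, against 9.61, 9.41, 9.30 and 8.79 in WT samples, which gave a log2 fold change of -1.56 ± 0.28 (SE), adjusted p = 0.00462. Gpr3, a constitutively active receptor that raises cyclic AMP, had levels of 7.82, 7.42, 6.91 and 7.03 in zQ175 samples, against 8.54, 8.58, 8.75 and 8.14 in WT samples, with a log2 fold change of -1.21 ± 0.18 (SE), adjusted p = 0.00105. Cacna1c, the pore subunit of an L-type calcium channel, had levels of 5.68, 5.26, 5.94 and 5.52 in zQ175 samples, against 7.22, 6.90, 6.19 and 6.80 in WT samples, a difference of -1.18 ± 0.20 (SE), adjusted p = 0.00319. The groups of these genes did not overlap. Fam83d changed by -1.15 ± 0.22 (SE), adjusted p = 0.00729, Zdbf2, an imprinted gene, by -1.03 ± 0.21 (SE), adjusted p = 0.00918, and Cables1, an adaptor of cyclin-dependent kinases, by -0.96 ± 0.17 (SE), adjusted p = 0.00452.

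Further decreases were those of Ptger4, a prostaglandin E receptor (-1.17 ± 0.30 (SE), adjusted p = 0.0331), Bambi, a decoy receptor of TGF-beta signals (-1.12 ± 0.31 (SE), adjusted p = 0.0471), Vstm2a (-1.12 ± 0.30 (SE), adjusted p = 0.0411) and BE949265 (-1.04 ± 0.25 (SE), adjusted p = 0.0229). Each of these calls was lost when certain single samples were left out. Ptger4 was no longer called without zQ175 sample 31 or 32 or WT sample 34 or 35 (-0.93 to -1.12). Bambi was no longer called without zQ175 sample 30, 31, 32 or 33 or WT sample 34, 35 or 36 (-0.88 to -1.27), nor without 6-month zQ175 sample 26, 27 or 28 or WT sample 22 or 23. Vstm2a was no longer called without zQ175 sample 31, 32 or 33 or WT sample 34, 35 or 36 (-0.96 to -1.27), nor without 6-month zQ175 sample 27 or 29 or WT sample 22 or 24. BE949265 was no longer called without zQ175 sample 31, 32 or 33 or WT sample 34 or 35 (-0.90 to -1.06).

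The lower genes with the smallest p had modest changes with tight replicates. Paqr8, a membrane progestin receptor, had levels of 11.43, 11.36, 11.40 and 11.34 in zQ175 samples, against 11.85, 11.85, 11.96 and 11.91 in WT samples, which gave a log2 fold change of -0.51 ± 0.07 (SE), adjusted p = 0.000375. Vegfa, the vascular endothelial growth factor, had levels of 10.02, 9.90, 9.92 and 9.83 in zQ175 samples, against 10.61, 10.56, 10.44 and 10.45 in WT samples, with a change of -0.60 ± 0.08 (SE), adjusted p = 0.000473. The endothelial markers, at 7.15 to 8.83 in zQ175 and 8.18 to 9.52 in WT samples, overlapped between the groups. The fit with their mean as a covariate gave 639 calls over all genes. This count says nothing of Vegfa itself, whose value in that fit is not given here. Beyond that fit, the part of the endothelial markers in the Vegfa difference was not tested. Gabra4, a GABA-A receptor subunit, fell by 0.50 ± 0.07 (SE), adjusted p = 0.00098, and Fam160b2 by 0.78 ± 0.10 (SE), adjusted p = 0.000526.

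Of 21 astrocyte markers tested, 1 was called higher and 1 lower (9.52%, against 5.9% of all genes tested), 19 had a negative log2 fold change, and the median was -0.14 against 0.02 over all genes tested. S100b, a calcium-binding protein also found in oligodendrocytes, had levels of 11.91, 11.88, 11.95 and 11.83 in zQ175 samples, against 11.18, 11.26, 11.32 and 11.28 in WT samples, and rose by 0.64 ± 0.06 (SE), adjusted p = 1.8e-05. Gjb6, the gap junction protein of astrocytes, had a log2 fold change of -0.43 ± 0.12 (SE), adjusted p = 0.041. Of 15 genes of glutamate, GABA and potassium handling, none was called higher and 2 lower (13.3%), with a median of -0.17. These were Gjb6 and Slc6a11, a GABA transporter (-0.33 ± 0.09 (SE), adjusted p = 0.044). Gjb6 was no longer called without zQ175 sample 30, 31 or 33 or WT sample 34, 35 or 37 (-0.37 to -0.44), nor without 6-month zQ175 sample 27 or 28 or WT sample 22. Slc6a11 was no longer called without zQ175 sample 31, 32 or 33 or WT sample 34 or 35 (-0.28 to -0.34), nor without 6-month zQ175 sample 27, 28 or 29 or WT sample 22, 23 or 24.

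Of 14 astrocyte receptor and calcium signalling genes, 1 was called higher and none lower (7.14%), with a median of -0.29. It was Slc8a1, a sodium-calcium exchanger (0.98 ± 0.28 (SE), adjusted p = 0.0494), while Itpr2, the main inositol trisphosphate receptor of astrocytes, differed by -0.35 ± 0.10 (SE), adjusted p = 0.057. None of 18 genes of synaptogenic and matrix proteins was called, and their median was -0.15. The smallest p there belonged to Nlgn2, a neuroligin (-0.35 ± 0.10 (SE), adjusted p = 0.0541), and Mertk, a phagocytic receptor (-0.32 ± 0.09 (SE), adjusted p = 0.0575). Slc8a1 was no longer called without zQ175 sample 31, 32 or 33 or WT sample 34, 35 or 36 (0.79 to 1.01), nor without 6-month zQ175 sample 26, 27, 28 or 29 or WT sample 22, 23 or 24.

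Of 19 reactive astrocyte genes, 1 was called higher and none lower (5.26%, against 5.9% of all genes tested), with a median of 0.06. It was Serpina3n, a serine protease inhibitor (0.63 ± 0.16 (SE), adjusted p = 0.0319), and Amigo2 differed by -0.62 ± 0.18 (SE), adjusted p = 0.0572. Among the 17 interferon-stimulated genes tested there were 3 calls (17.6%), each of them higher, and 15 members had a positive log2 fold change, with a median of 0.41. These were Xaf1 (0.60 ± 0.14 (SE), adjusted p = 0.0227), Mx2, an antiviral GTPase (0.74 ± 0.19 (SE), adjusted p = 0.0321), and Irf7, a transcription factor of the interferon response (0.76 ± 0.20 (SE), adjusted p = 0.0343). The mean of the list was 8.20, 8.42, 8.50 and 8.46 in zQ175 samples, against 8.08, 7.96, 7.79 and 8.03 in WT samples. None of 8 inflammatory cytokine and NF-kB target genes was called, with a median of -0.31. Icam1, an adhesion molecule also made by endothelium, had levels of 6.91, 5.22, 6.70 and 6.65 in zQ175 samples, against 8.98, 8.20, 7.86 and 7.19 in WT samples and differed by -1.69 ± 0.50 (SE), adjusted p = 0.0596, with zQ175 sample 31 low for it and for the endothelial markers. The part of endothelial RNA in this was not tested. Nfkbia, an NF-kB inhibitor, differed by -0.39 ± 0.12 (SE), adjusted p = 0.0649. Serpina3n was no longer called without zQ175 sample 31, 32 or 33 or WT sample 34, 35 or 37 (0.53 to 0.64). Xaf1 was no longer called without zQ175 sample 31 or 32 or WT sample 34 (0.55 to 0.58). Mx2 was no longer called without WT sample 34 or 35 (0.68). Irf7 was no longer called without zQ175 sample 31, 32 or 33 or WT sample 34, 35 or 36 (0.67 to 0.82). The rise of the interferon-stimulated genes was not particular to astrocytes. In zQ175 microglia at 12 months, 3 of the 17 were called higher (median 0.44), against 5.21% of all genes there. In the negative fraction 4 were called higher (median 0.21), against 11.5% of all genes there.

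Of 19 cholesterol biosynthesis genes, none was called higher and 3 lower (15.8%, against 5.9% of all genes tested), with a median of -0.15. They were Idi1 (-0.34 ± 0.08 (SE), adjusted p = 0.0195), Tm7sf2 (-0.43 ± 0.10 (SE), adjusted p = 0.0236) and Msmo1 (-0.24 ± 0.07 (SE), adjusted p = 0.0488), which encode enzymes of the pathway. Of 24 genes of lipid transport and fatty acid metabolism, none was called higher and 2 lower (8.33%), with a median of -0.11. These were Ppara, a nuclear receptor of fatty acid oxidation (-0.50 ± 0.13 (SE), adjusted p = 0.0319), and Lcat, an enzyme that esterifies cholesterol (-0.39 ± 0.10 (SE), adjusted p = 0.033). Idi1 was no longer called without zQ175 sample 32 or 33 (-0.31 to -0.33). Tm7sf2 was no longer called without zQ175 sample 31 or 32 or WT sample 34 or 37 (-0.39 to -0.44). Msmo1 was no longer called without zQ175 sample 30, 31, 32 or 33 or WT sample 34, 35, 36 or 37 (-0.21 to -0.26), nor without 6-month zQ175 sample 26, 27, 28 or 29 or WT sample 22, 23 or 24. Ppara was no longer called without zQ175 sample 30, 31, 32 or 33 or WT sample 34, 35 or 36 (-0.46 to -0.52). Lcat was no longer called without zQ175 sample 31, 32 or 33 or WT sample 34, 35 or 37 (-0.35 to -0.40).

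Among 19 clock genes, 1 was called higher and 3 lower (21.1%, against 5.9% of all genes tested), with a median of -0.15. Per1, a repressor of the circadian clock, had levels of 8.48, 8.56, 7.98 and 8.31 in zQ175 samples, against 9.43, 9.17, 10.03 and 9.47 in WT samples, which gave a log2 fold change of -1.19 ± 0.24 (SE), adjusted p = 0.0104. Its zQ175 samples all lay below its WT samples. Nfil3, a repressor of clock output genes, rose by 0.93 ± 0.21 (SE), adjusted p = 0.0178, and the nuclear receptors Rora (-0.48 ± 0.13 (SE), adjusted p = 0.041) and Rorb (-0.33 ± 0.08 (SE), adjusted p = 0.03) were lower. Nfil3 was no longer called without zQ175 sample 31 or 33 or WT sample 34 (0.75 to 0.88). Rora was no longer called without zQ175 sample 30, 31, 32 or 33 or WT sample 34, 35 or 37 (-0.37 to -0.50), nor without 6-month zQ175 sample 27, 28 or 29 or WT sample 24. Rorb was no longer called without zQ175 sample 31, 32 or 33 or WT sample 34, 35 or 37 (-0.29 to -0.33). In the zQ175 negative fraction at 12 months, none of the 19 clock genes was called higher and 4 lower (median -0.17), against 7.62% of all genes called lower there. In microglia, 1 was called higher and none lower (median 0.0).

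Of 18 glucocorticoid-responsive genes, none was called higher and 4 lower (22.2%, against 5.9% of all genes tested). The median was -0.20, and Per1 was among the 4 lower genes. Tsc22d3, a glucocorticoid-induced leucine zipper protein, had levels of 11.17, 10.94, 11.09 and 10.72 in zQ175 samples, against 11.89, 11.89, 11.54 and 11.69 in WT samples, a change of -0.77 ± 0.11 (SE), adjusted p = 0.000725. Klf9, a Krüppel-like factor, had levels of 12.01, 11.92, 12.15 and 12.03 in zQ175 samples, against 12.38, 12.41, 12.42 and 12.32 in WT samples, with a difference of -0.36 ± 0.06 (SE), adjusted p = 0.00462. Sgk1, a kinase induced by glucocorticoids, had a log2 fold change of -0.72 ± 0.19 (SE), adjusted p = 0.0385. The mean of the list was 10.69, 10.68, 10.97 and 10.68 in zQ175 samples, against 11.10, 11.04, 11.11 and 10.89 in WT samples, so zQ175 sample 32 overlapped the WT range. The decrease was not particular to astrocytes. In the zQ175 negative fraction at 12 months, none of the 18 was called higher and 5 lower (median -0.25), against 7.62% of all genes called lower there. In microglia, 1 was called higher and 1 lower (median -0.01). Sgk1 was no longer called without zQ175 sample 30, 31 or 33 or WT sample 34, 35, 36 or 37 (-0.61 to -0.77), nor without 6-month zQ175 sample 28 or WT sample 24. Of 21 heat shock and unfolded protein response genes, none was called higher and 3 lower (14.3%, against 5.9% of all genes tested). All 21 had a negative log2 fold change, where 54.1% of all genes tested were positive, and the median was -0.24. The called ones were the chaperone genes Dnajb1 (-0.52 ± 0.12 (SE), adjusted p = 0.0181), Hspb8 (-0.44 ± 0.11 (SE), adjusted p = 0.0233) and Hspa1b (-0.81 ± 0.22 (SE), adjusted p = 0.0476). Dnajb1 was no longer called without zQ175 sample 32 or WT sample 35 (-0.43 to -0.50). Hspb8 was no longer called without zQ175 sample 31 or 32 or WT sample 34 or 35 (-0.37 to -0.44). Hspa1b was no longer called without zQ175 sample 31, 32 or 33 or WT sample 34, 35, 36 or 37 (-0.71 to -0.87), nor without 6-month zQ175 sample 28 or 29 or WT sample 23 or 25.

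Promoter windows from RefSeq (GRCm38.p6, 250 bases before to 50 after each start) were matched to 10009 of the 12380 genes tested, 419 of them called higher and 154 called lower. In all, 9 motifs were searched on both strands. The E-box CACGTG occurred in 8.11% of higher and 13.6% of lower genes, against 11.7% of all genes tested. The core of the glucocorticoid response element, ACANNNTGT, occurred in 6.21% of higher and 9.74% of lower genes, against 5.19% of all. The interferon-stimulated response element occurred in 2.15% of higher and 1.95% of lower genes, against 3.46% of all, and in 8 of the 13 interferon-stimulated genes with a promoter window, which did not include the 2 called ones (Irf7 and Xaf1). The other shares for higher, lower and all genes were 3.34%, 1.95% and 3.53% for TGACGTCA and 28.9%, 29.9% and 35.1% for its short form TGACG, which overlaps it. TATAAA was in 46 of 419 higher and 13 of 154 lower genes, against 879 of all 10009. The sterol regulatory element was in 0, 0 and 18 genes, the heat shock element in 1, 0 and 58 genes, and the REST site in 1, 0 and 1 gene. A match is only a run of letters, and nothing is drawn from it. Each list was searched for its own motif. The E-box was in 5 of the 17 clock genes with a promoter window, and the glucocorticoid core in 2 of 16 glucocorticoid-responsive genes. Genes with more windows have more room for a match. Among called clock genes Per1 held the E-box, in 1 of its 2 windows. Among called glucocorticoid-responsive genes Sgk1 held the glucocorticoid core, in 2 of its 6 windows. These windows hold the matches. They are shown, chosen after values and matches were seen, because both genes were lower in zQ175 astrocytes. Capitals mark the match in the Per1 window (chr11:69098699-69098998, plus strand) and in the first (chr10:21978422-21978721, plus strand) and the second (chr10:21993640-21993939, plus strand) Sgk1 window. The second Sgk1 window also holds the E-box, left in lower case, and an Sgk1 window not shown holds the interferon-stimulated response element.
Per1: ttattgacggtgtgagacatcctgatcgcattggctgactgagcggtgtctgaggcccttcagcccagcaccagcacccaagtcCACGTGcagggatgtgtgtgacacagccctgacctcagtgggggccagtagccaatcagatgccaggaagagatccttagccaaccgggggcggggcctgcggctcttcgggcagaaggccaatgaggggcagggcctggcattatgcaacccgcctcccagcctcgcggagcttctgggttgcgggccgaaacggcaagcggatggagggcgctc
Sgk1, first: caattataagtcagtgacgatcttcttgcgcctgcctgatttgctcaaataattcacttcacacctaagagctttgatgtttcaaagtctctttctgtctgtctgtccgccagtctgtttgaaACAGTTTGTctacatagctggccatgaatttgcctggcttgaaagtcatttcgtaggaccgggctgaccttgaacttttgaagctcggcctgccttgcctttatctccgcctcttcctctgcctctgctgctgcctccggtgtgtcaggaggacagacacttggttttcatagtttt
Sgk1, second: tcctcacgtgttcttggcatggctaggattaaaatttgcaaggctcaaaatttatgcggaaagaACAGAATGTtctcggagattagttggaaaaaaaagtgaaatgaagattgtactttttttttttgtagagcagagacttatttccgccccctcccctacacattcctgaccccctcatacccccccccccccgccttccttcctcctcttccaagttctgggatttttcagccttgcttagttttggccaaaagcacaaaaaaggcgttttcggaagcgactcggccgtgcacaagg

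Of 24 immediate early genes, which respond within minutes to stimuli, 1 was called higher and 1 lower (8.33%), with a median of 0.08. Arc rose by 1.01 ± 0.24 (SE), adjusted p = 0.0207, and Nr4a1, an orphan nuclear receptor, had levels of 7.84, 8.52, 8.20 and 8.10 in zQ175 samples, against 9.48, 8.73, 9.54 and 9.01 in WT samples, a change of -1.03 ± 0.24 (SE), adjusted p = 0.0216. WT sample 34 had the highest mean of the list, 9.05, against 8.10 to 8.22 in the other WT samples and 8.08 to 8.47 in zQ175 samples. Arc was no longer called without zQ175 sample 31 or 33 or WT sample 34 or 35 (0.88 to 0.93). Nr4a1 was no longer called without zQ175 sample 30, 32 or 33 or WT sample 34 (-0.92 to -1.04).

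Several genes known from neurons rose. Of 16 pan-neuronal markers tested, 4 were called higher and 1 lower (31.2%, against 5.9% of all genes tested), with a median of -0.04. The lower one, named after its values were seen, was Thy1, a surface glycoprotein of neurons (-0.47 ± 0.13 (SE), adjusted p = 0.0488). Besides Snhg11 and Uchl1, Tubb3, a neuronal tubulin, had levels of 9.63, 10.26, 10.10 and 10.06 in zQ175 samples, against 8.22, 8.26, 9.39 and 8.70 in WT samples and rose by 1.37 ± 0.24 (SE), adjusted p = 0.00347, and Gap43, a growth cone protein, by 0.38 ± 0.09 (SE), adjusted p = 0.0194. Of 21 neuronal genes with REST sites, 4 were called higher and none lower, also with a median of -0.04. They were Gdap1, a mitochondrial protein (0.95 ± 0.19 (SE), adjusted p = 0.00888), Stmn3, a stathmin (0.50 ± 0.12 (SE), adjusted p = 0.0216), Syn1, a synaptic vesicle protein (1.42 ± 0.34 (SE), adjusted p = 0.0233), and L1cam, an adhesion molecule (1.05 ± 0.29 (SE), adjusted p = 0.0447). Of 9 medium spiny neuron genes, 1 was called higher and none lower (11.1%), 5 had a negative log2 fold change, and the median was -0.20. The called one was Bcl11b, a transcription factor (1.32 ± 0.30 (SE), adjusted p = 0.018), while Ppp1r1b, a phosphatase inhibitor of these neurons, differed by -0.40 ± 0.13 (SE), adjusted p = 0.0907. The pan-neuronal markers averaged 7.67 ± 0.06 in zQ175 and 7.35 ± 0.11 in WT astrocytes. This mean includes Snhg11 and Uchl1, which rose by 3.88 and 2.48, while the median change of the list was -0.04. The mean is therefore not a separate measure of neuronal RNA, and the part of neuronal RNA in these calls was not tested. Thy1 was no longer called without zQ175 sample 30, 31 or 32 or WT sample 34, 35 or 36 (-0.36 to -0.50), nor without 6-month zQ175 sample 26, 27 or 28 or WT sample 22, 23, 24 or 25. Gap43 was no longer called without zQ175 sample 31 or 32 or WT sample 34 (0.35 to 0.38). Stmn3 was no longer called without zQ175 sample 31 or 32 or WT sample 34 (0.45 to 0.48). Syn1 was no longer called without zQ175 sample 31, 32 or 33 or WT sample 34 or 35 (1.20 to 1.46). L1cam was no longer called without zQ175 sample 31, 32 or 33 or WT sample 34, 35 or 36 (0.83 to 1.08), nor without 6-month zQ175 sample 26, 27 or 28 or WT sample 24 or 25. Bcl11b was no longer called without zQ175 sample 31 or 32 (1.28 to 1.32).

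Among 9 homeobox developmental regulators, 2 were called higher and none lower (22.2%, against 5.9% of all genes tested), with a median of -0.08. Onecut2 rose by 1.85 ± 0.39 (SE), adjusted p = 0.0124, and Nkx2-2, a factor of the oligodendrocyte lineage, had levels of 10.98, 11.10, 10.92 and 10.98 in zQ175 samples, against 10.54, 10.31, 10.30 and 10.57 in WT samples and rose by 0.57 ± 0.08 (SE), adjusted p = 0.000544. Of 10 ependymal and subventricular zone markers, 1 was called, Dcx, a protein of migrating neuroblasts (1.62 ± 0.39 (SE), adjusted p = 0.0229), and Sox11 differed by -0.26 ± 0.14 (SE), adjusted p = 0.331. Of 13 oligodendrocyte markers, 2 were called higher and none lower (15.4%), with a median of 0.04. They were Gjb1, a connexin (0.79 ± 0.19 (SE), adjusted p = 0.0252), and Opalin, a myelin protein (0.32 ± 0.09 (SE), adjusted p = 0.0428). Of 9 oligodendrocyte precursor markers, Nkx2-2 was called higher and Vcan, a matrix proteoglycan, lower (-0.46 ± 0.13 (SE), adjusted p = 0.0485). The share called was 22.2% and the median 0.32. Dcx was no longer called without zQ175 sample 32 or WT sample 34 (1.38 to 1.45). Gjb1 was no longer called without zQ175 sample 31, 32 or 33 or WT sample 34 or 35 (0.59 to 0.80). Opalin was no longer called without zQ175 sample 30, 31 or 32 or WT sample 34, 35 or 36 (0.26 to 0.35), nor without 6-month zQ175 sample 27 or 28 or WT sample 22 or 23. Vcan was no longer called without zQ175 sample 30, 31, 32 or 33 or WT sample 34, 35 or 37 (-0.38 to -0.52), nor without 6-month zQ175 sample 26, 27, 28 or 29 or WT sample 24.

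None of 16 oxidative phosphorylation genes (median 0.04), 17 glycolysis and lactate genes (-0.09) or 20 autophagy and lysosome genes (0.00) was called. The members with the smallest p were Ppargc1a (-0.25), Ndufa4 (-0.12), Ldha (-0.45), Pfkp (-0.36), Hexa (-0.22) and Gabarap (0.14). Of 13 proliferation genes, 1 was called higher and none lower (7.69%), with a median of -0.10. The called one was the cell cycle inhibitor Cdkn1c (0.91 ± 0.21 (SE), adjusted p = 0.0201), and Pcna differed by 0.34 ± 0.11 (SE), adjusted p = 0.0941. All 17 endothelial and mural markers had negative values, with a median of -0.30, and none was called. The smallest p were those of Acta2 (-0.68) and Tagln (-0.68). None of 6 homeostatic microglia markers tested was called, with P2ry12 at 0.35 and Sall1 at -0.10, nor either border macrophage and blood cell marker tested, Cd3e (0.35) and Alas2 (-0.32). None of 3 sex-linked genes was called, with Uty at -0.34 and Kdm5d at 0.19. Cdkn1c was no longer called without zQ175 sample 31 or 33 (0.80 to 0.85).

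The genes that neighbour Htt, where the knock-in allele lies, were described as well. Of 86 tested among the 60 array genes on each side, 1 was called higher and 1 lower (2.33%, against 5.9% of all genes tested), with a median of 0.03. They were Zfyve28, 9 genes before Htt (0.66 ± 0.14 (SE), adjusted p = 0.0162), and Nat8l, which makes N-acetylaspartate, 14 genes before it (-0.42 ± 0.10 (SE), adjusted p = 0.0224). Of 789 tested genes on the chromosome of Htt, with Htt left out, 41 were called higher and 13 lower (6.84%). Of the 24 largest changes, 3 lie on it, beside 789 of all 12380 genes tested. Whether 3 of 24 departs from that share was not tested. The 3 are those of Abhd1, 67 genes before Htt, Uchl1, 127 genes after it, and Tmem132c, 629 genes after it. Zfyve28 was no longer called without zQ175 sample 31 or 32 (0.55 to 0.62). Nat8l was no longer called without zQ175 sample 31 or 32 or WT sample 35 (-0.40 to -0.43).

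**Figure D4:**
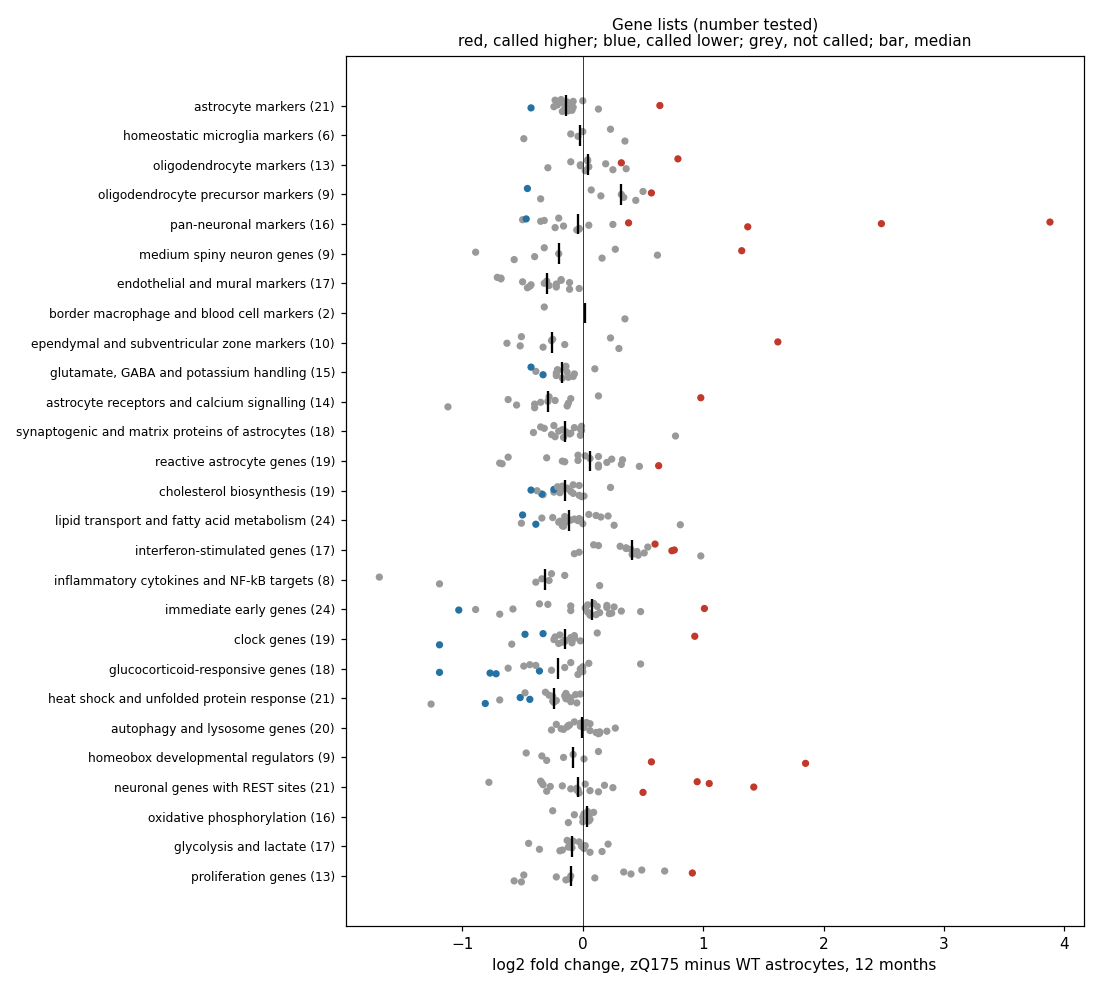
Log2 fold change (zQ175 minus WT astrocytes, 12 months) of each tested member of 27 gene lists, with the number tested in brackets and the median as a bar. Medians run from -0.31 (inflammatory cytokines and NF-kB targets) to 0.41 (interferon-stimulated genes), beside 0.02 over all genes tested.

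The zQ175 effect at 12 months was set against that at 6 months, where separate samples (4 zQ175 and 4 WT) gave 47 called genes (0.38%), 46 (0.372%) higher and 1 (0.00808%) lower. Of the 536 genes higher at 12 months, 523 (97.6%) were also positive at 6 months, against 47.5% of all genes, with a median of 0.31 and 43 called. These 43 were 93.5% of the genes higher at 6 months and 8.02% of those higher at 12 months. Of the 195 lower genes, 168 (86.2%) were negative at 6 months, with a median of -0.14, and none was called lower there. The difference between the effects passed the test for 1 gene (0.00808%), while 562 had an unadjusted p under 0.05. It was Fam160b2, at -0.78 at 12 months and 0.76 at 6 months, a difference of -1.54 ± 0.15 (SE), adjusted p = 0.000412. The next smallest p on the positive side were those of Il17b (2.24 against 1.35), Insm1 (2.37 against 1.42), Gng3, a G protein subunit (1.35 against 0.21), and Cdh6, a cadherin (1.71 against 0.79), each with an adjusted p of 0.512. On the negative side they were Paqr8 (-0.51 against -0.07), Egfl6 (-0.63 against 0.23) and Ubr7 (-0.25 against 0.24). Abhd1 was at 2.22 at 12 months and 2.23 at 6 months, and Tnfrsf13c differed by 1.63 ± 0.36 (SE), adjusted p = 0.512. Egfl6 itself, zQ175 against WT astrocytes at 12 months, was no longer called without zQ175 sample 32 (-0.55).

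R6/2 astrocytes at 12 weeks (6 samples, against 5 WT samples of their own) had 3600 called genes (29.3%). Of the zQ175 higher genes tested there, 213 of 525 were called higher and 29 lower in R6/2, against 14.3% of all genes called higher. Of the zQ175 lower genes, 107 of 194 were called lower and 6 higher, against 15.1% of all called lower. The 2 effects differed for 1244 genes (10.1%), 772 (6.29%) with the zQ175 value above and 472 (3.85%) with it below. The number was 765 without WT sample 34, 788 without zQ175 sample 31 and 2236 with array weights. Abhd1 moved in opposite directions, at 2.22 in zQ175 and -1.29 in R6/2, a difference of 3.51 ± 0.39 (SE), adjusted p = 1.09e-06. The other genes with the smallest p on that side were Tll2 (0.60 in zQ175 and -1.66 in R6/2, difference 2.26 ± 0.26 (SE), adjusted p = 1.78e-06), Msmo1 (-0.24 in zQ175 and -1.21 in R6/2, difference 0.98 ± 0.12 (SE), adjusted p = 6.38e-06) and Gm33738 (1.13 in zQ175 and -1.37 in R6/2, difference 2.49 ± 0.32 (SE), adjusted p = 1.23e-05). Values were lower in zQ175 for Gbp6 (0.81 in zQ175 and 2.94 in R6/2, difference -2.13 ± 0.27 (SE), adjusted p = 7.63e-06), an interferon-induced GTPase, Fxyd6 (1.0 in zQ175 and 3.15 in R6/2, difference -2.15 ± 0.34 (SE), adjusted p = 0.000191), Zdbf2 (-1.03 in zQ175 and 0.58 in R6/2, difference -1.61 ± 0.29 (SE), adjusted p = 0.000503) and Dzip1l (-0.64 in zQ175 and 0.58 in R6/2, difference -1.22 ± 0.22 (SE), adjusted p = 0.000528). All 19 cholesterol biosynthesis genes were called lower in R6/2 (median -0.89), against 3 in zQ175 (-0.15), and the interferon-stimulated genes passed the test upward in 17 of 17 cases in R6/2 (1.41), against 3 in zQ175 (0.41). Snhg11 and Uchl1 were higher in both, at 3.88 and 2.48 in zQ175 and 4.47 and 2.65 in R6/2. The Y-linked genes Eif2s3y, Kdm5d and Uty were all called higher in R6/2 and none in zQ175. Their mean lay at 7.41 to 9.26 in R6/2 samples, against 2.80 to 8.66 in their WT samples, where it spread widely. In R6/2, 8 of 13 oligodendrocyte markers were called lower (median -0.27), against none in zQ175 (0.04), and 9 of 21 astrocyte markers (-0.14), against 1 in zQ175 (-0.14). The oligodendrocyte markers averaged 12.03 ± 0.22 in R6/2 samples and 12.40 ± 0.09 in their WT samples (SD, n = 6 and 5). The part of the sex of the pooled mice and of other cells in these differences was not tested. Tll2 itself, zQ175 against WT astrocytes at 12 months, was no longer called without zQ175 sample 31, 32 or 33 or WT sample 34, 35 or 36 (0.50 to 0.61). Gbp6 itself, zQ175 against WT astrocytes at 12 months, was no longer called without zQ175 sample 31 or 32 or WT sample 34 (0.71 to 0.77). Fxyd6 itself, zQ175 against WT astrocytes at 12 months, was no longer called without WT sample 34 or 37 (0.87 to 0.94). Dzip1l itself, zQ175 against WT astrocytes at 12 months, was no longer called without zQ175 sample 32 or 33 or WT sample 35 (-0.51 to -0.60).

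Microglia of the zQ175 and WT mice at 12 months had 730 called genes (5.8%), 655 (5.21%) higher and 75 (0.596%) lower. Of the astrocyte higher genes tested there, 121 of 510 were called higher and none lower in microglia, and of the lower genes 3 of 185 were called lower and 11 higher. The effect differed between astrocytes and microglia for 120 genes (0.954%), 32 (0.254%) with the astrocyte value above and 88 (0.7%) below. The number was 60 to 79 without any one zQ175 astrocyte sample or WT astrocyte sample 34 or 35, 181 without zQ175 microglia sample 30, 68 with probe sets averaged, 857 with array weights and 194 with the replicate number as a block. The labels do not say whether a number shared by fractions marks 1 pool. The zQ175 effect was higher in astrocytes for Tmtc4 (1.40 in astrocytes and 0.05 in microglia, difference 1.35 ± 0.17 (SE), adjusted p = 0.000388), Lcp1 (1.65 in astrocytes and -0.05 in microglia, difference 1.70 ± 0.22 (SE), adjusted p = 0.000388), an actin-bundling protein, Fcho1 (1.60 in astrocytes and -0.07 in microglia, difference 1.66 ± 0.25 (SE), adjusted p = 0.00161), an endocytosis factor, and Pqlc3 (1.91 in astrocytes and -0.11 in microglia, difference 2.02 ± 0.30 (SE), adjusted p = 0.00161). The zQ175 effect was lower in astrocytes for Thsd7a (0.96 in astrocytes and 3.46 in microglia, difference -2.50 ± 0.45 (SE), adjusted p = 0.00727), Ptger4 (-1.17 in astrocytes and 0.89 in microglia, difference -2.06 ± 0.32 (SE), adjusted p = 0.00198), Parm1 (0.46 in astrocytes and 1.85 in microglia, difference -1.38 ± 0.28 (SE), adjusted p = 0.0179) and Sh3pxd2b (-0.47 in astrocytes and 1.01 in microglia, difference -1.48 ± 0.17 (SE), adjusted p = 0.000336). With probe sets averaged, the differences for Thsd7a (-0.97) and Parm1 (-1.09) were no longer called. The oligodendrocyte markers were also higher in zQ175 microglia, at 10.84 ± 0.10, against 9.84 ± 0.76 in WT microglia, and the endothelial markers at 8.12 ± 1.17 against 6.88 ± 0.14. Their part in these differences was not tested. S100b and Nkx2-2 rose by 0.64 and 0.57 in astrocytes and by 2.18 and 2.29 in microglia. Parm1 itself, zQ175 against WT astrocytes at 12 months, was no longer called without zQ175 sample 31 or 32 or WT sample 34 or 36 (0.39 to 0.45). Sh3pxd2b itself, zQ175 against WT astrocytes at 12 months, was no longer called without zQ175 sample 31, 32 or 33 or WT sample 34, 35 or 37 (-0.38 to -0.48), nor without 6-month zQ175 sample 27 or WT sample 22, 23 or 24.

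The negative fraction at 12 months had 2400 called genes (19.1%), 1442 (11.5%) higher and 958 (7.62%) lower. Of the astrocyte higher genes tested there, 167 of 510 were called higher and 8 lower, and of the lower genes 31 of 185 were called lower and 8 higher. The effect differed between astrocytes and this fraction for 165 genes (1.31%), 77 (0.612%) above and 88 (0.7%) below. The number was 734 without negative-fraction zQ175 sample 33, and 70 to 104 without negative-fraction zQ175 sample 32 or WT sample 34 or 35, or astrocyte zQ175 sample 30, 31 or 32 or WT sample 36, and 109 with a stricter filter on dim genes. The zQ175 effect was higher in astrocytes for Uchl1 (2.48 in astrocytes and -0.31 in the negative fraction, difference 2.80 ± 0.40 (SE), adjusted p = 0.00134), Tmtc4 (1.40 in astrocytes and -0.24 in the negative fraction, difference 1.64 ± 0.17 (SE), adjusted p = 5.93e-05), Lcp1 (1.65 in astrocytes and 0.30 in the negative fraction, difference 1.35 ± 0.22 (SE), adjusted p = 0.00321) and Pqlc3 (1.91 in astrocytes and -0.23 in the negative fraction, difference 2.14 ± 0.30 (SE), adjusted p = 0.00134). It was lower in astrocytes for Serpina3n (0.63 in astrocytes and 2.70 in the negative fraction, difference -2.07 ± 0.43 (SE), adjusted p = 0.0183), Tm7sf2 (-0.43 in astrocytes and 0.44 in the negative fraction, difference -0.87 ± 0.15 (SE), adjusted p = 0.00479), Hspa1b (-0.81 in astrocytes and 0.04 in the negative fraction, difference -0.85 ± 0.17 (SE), adjusted p = 0.0157) and 6330509M05Rik (-0.49 in astrocytes and 0.72 in the negative fraction, difference -1.21 ± 0.26 (SE), adjusted p = 0.0214). The difference for 6330509M05Rik was no longer called without negative-fraction WT sample 34 (-1.09) or astrocyte zQ175 sample 32 (-1.10). The homeostatic microglia markers averaged 7.56 ± 1.93 in the zQ175 negative fraction, at 6.42 to 10.44, against 5.70 ± 0.54 in WT, at 5.20 to 6.46. Their part in these differences was not tested. Tnfrsf13c rose in all 3 fractions, with log2 fold changes of 3.89 for astrocytes, 2.23 for microglia and 2.88 for the negative cells. 6330509M05Rik itself, zQ175 against WT astrocytes at 12 months, was no longer called without zQ175 sample 30, 31, 32 or 33 or WT sample 34, 35 or 37 (-0.38 to -0.57), nor without 6-month zQ175 sample 27 or 28 or WT sample 23, 24 or 25.

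**Figure D5:**
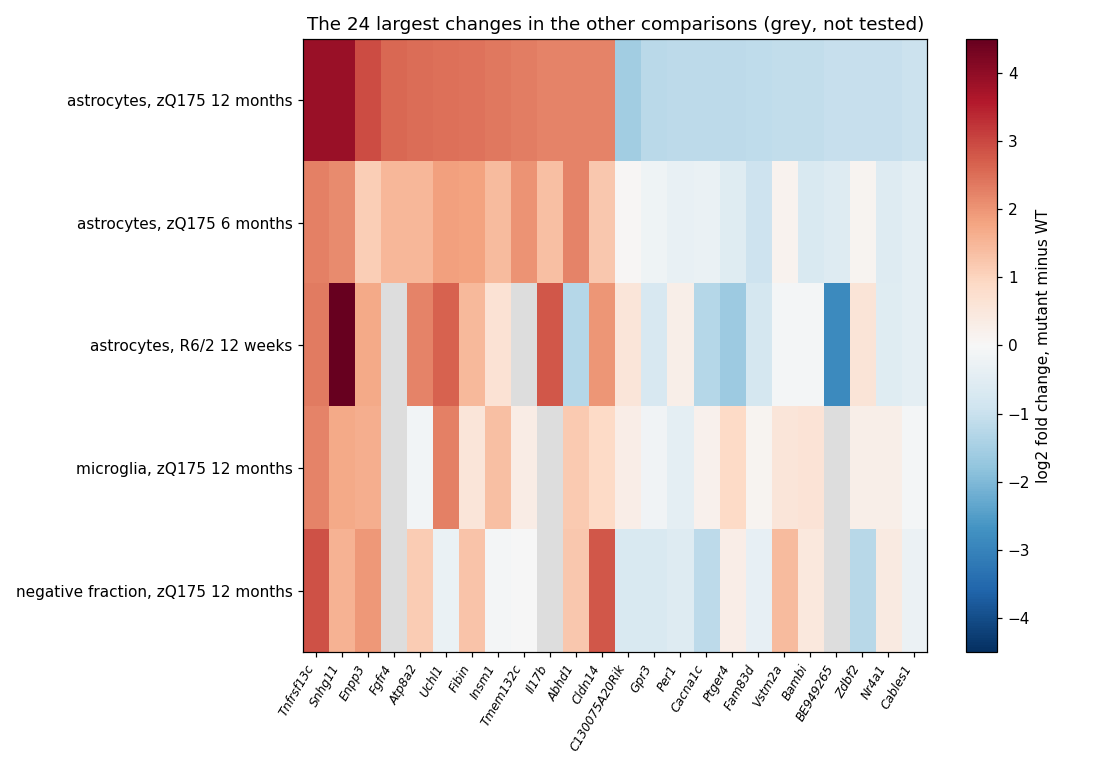
Log2 fold change (mutant minus WT) of the 24 genes with the largest changes at 12 months, in zQ175 astrocytes at 12 and 6 months, R6/2 astrocytes at 12 weeks, and zQ175 microglia and the negative fraction at 12 months, with genes not tested in grey. Tnfrsf13c and Snhg11 are positive in all 5, while Abhd1 is 2.22 and 2.23 in zQ175 astrocytes and -1.29 in R6/2 astrocytes.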

How the data were processed

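RNA from sorted striatal fractions was hybridised to Affymetrix arrays. The authors deposited log2 values, and the submitters' processing notes name affy, RMA and limma, without versions. Of 45101 probe sets, 34958 had 1 gene symbol, 932 several and 9211 none. For each of 18194 genes, the brightest probe set (by its mean across the 111 arrays) was used. Array medians were 6.26 to 6.65, and no 2 arrays were identical. The number of arrays limits precision.

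Limma 3.58.1 in R 4.3.3 (lmFit, eBayes, two-sided, Benjamini-Hochberg over all genes tested) was fitted to zQ175 and WT astrocytes at 6 and 12 months (16 samples), all astrocytes (37) or the 3 fractions at 12 months (24). Genes with a mean under the 40th percentile of probe set means (log2 5.44, 5.49 and 5.62) were left out. A called gene had an adjusted p below 0.05. On simulated data for the 12-month comparison over 12380 genes, 90% of changes of log2 1 and 45% of log2 0.5 were recovered, with 6 false calls. These data held 100 changed genes of each size. The number of false calls among the genes called from the arrays themselves was not tested.

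Named genes were the 12 largest changes in each direction among called genes whose groups did not overlap, the 5 smallest p in each direction, up to 4 called members of each list (2 members where fewer than 2 were called), the 4 smallest p in each direction for each difference of effects (among genes also called at 12 months, or all genes for 12 minus 6 months), and Htt, Slc1a2 and Itgam. The members and lists were chosen with earlier results of these data known. Neighbours of Htt were taken in the reference gene table's order restricted to genes on the array. Alternatives were the filter, probe set choice, renormalization, robust and weighted fits, covariates, the replicate block and single samples left out. Labels do not state the litter of a pool or whether pools shared parents, and the main fit treated the pools as independent. The p-values therefore set a group difference against the spread between these samples. For the 12-month comparison that spread was estimated from the 16 samples at 6 and 12 months together.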

Additional observations from a re-analysis of the deposited data

Results flagged for a closer look

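In 20 of 300 groups of 4 samples (zQ175 or WT astrocytes at 12 months, for each named gene and list), 1 sample lay farther from the others than Dixon's 95% critical value allows. Chance gives about 1 in 20 such groups. Zdbf2 was highest in zQ175 sample 31, at 7.85 against 7.63 to 7.65 in the other zQ175 samples. Cables1 was highest in zQ175 sample 33, at 10.23 against 9.78 to 9.83 in the other zQ175 samples. P2ry12 was lowest in WT sample 36, at 6.73 against 7.55 to 7.69 in the other WT samples. Acta2 was lowest in zQ175 sample 31, at 9.95 against 10.32 to 10.38 in the other zQ175 samples. Cd3e was highest in WT sample 34, at 6.63 against 6.24 to 6.28 in the other WT samples. Mertk was highest in zQ175 sample 33, at 11.97 against 11.70 to 11.74 in the other zQ175 samples. Idi1 was highest in WT sample 36, at 11.96 against 11.80 to 11.82 in the other WT samples. Ppara was lowest in zQ175 sample 32, at 8.07 against 8.23 to 8.26 in the other zQ175 samples. Icam1 was lowest in zQ175 sample 31, at 5.22 against 6.65 to 6.91 in the other zQ175 samples. Gabarap was lowest in zQ175 sample 33, at 12.31 against 12.45 to 12.46 in the other zQ175 samples. Ldha was highest in zQ175 sample 33, at 11.09 against 10.82 to 10.87 in the other zQ175 samples. Htt was highest in WT sample 36, at 9.14 against 8.60 to 8.63 in the other WT samples. Lfng was highest in WT sample 36, at 12.40 against 12.29 to 12.30 in the other WT samples. Slc7a11 was lowest in zQ175 sample 31, at 8.80 against 9.16 to 9.23 in the other zQ175 samples. Slc7a11 was lowest in WT sample 36, at 9.74 against 9.85 to 9.86 in the other WT samples. The mean of endothelial and mural markers was lowest in zQ175 sample 31, at 7.15 against 8.63 to 8.83 in the other zQ175 samples. The mean of astrocyte receptors and calcium signalling was lowest in zQ175 sample 31, at 8.67 against 8.94 to 8.97 in the other zQ175 samples. The mean of cholesterol biosynthesis was highest in WT sample 36, at 11.38 against 11.20 to 11.23 in the other WT samples. The mean of immediate early genes was highest in WT sample 34, at 9.05 against 8.10 to 8.22 in the other WT samples. The mean of glucocorticoid-responsive genes was highest in zQ175 sample 32, at 10.97 against 10.68 to 10.69 in the other zQ175 samples.

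The test of the difference between effects picked out further genes, given as the zQ175 astrocyte effect at 12 months minus the other effect on the log2 scale. Against 6 months it was Fam160b2 (-1.54). Against R6/2 astrocytes at 12 weeks they were Abhd1 (3.51), Tll2 (2.26), Msmo1 (0.98), Gm33738 (2.49), Gbp6 (-2.13), Fxyd6 (-2.15), Zdbf2 (-1.61) and Dzip1l (-1.22). Against microglia they were Tmtc4 (1.35), Lcp1 (1.70), Fcho1 (1.66), Pqlc3 (2.02), Sh3pxd2b (-1.48), Ptger4 (-2.06), Thsd7a (-2.50) and Parm1 (-1.38). Against the negative fraction they were Tmtc4 (1.64), Pqlc3 (2.14), Uchl1 (2.80), Lcp1 (1.35), Tm7sf2 (-0.87), Hspa1b (-0.85), Serpina3n (-2.07) and 6330509M05Rik (-1.21).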

How the results depend on the processing

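With 4 samples in a group, many calls near the threshold rest on 1 sample. The 731 calls at 12 months became 1657 with array weights, 357 with the 12-month samples alone and 422 with the oligodendrocyte markers as a covariate, and 335 to 895 with 1 of the 8 samples left out. The single call for 12 minus 6 months became 3 without the filter on dim genes, and was 1 to 2 with 1 sample left out. The 1244 calls against R6/2 became 2236 with array weights and 765 to 1560 with 1 sample left out. The 120 calls against microglia became 68 with probe sets averaged, 857 with array weights and 194 with the replicate block, and 60 to 181 with 1 sample left out. The 165 calls against the negative fraction became 109 with a filter at the 60th percentile, 167 with the replicate block, and 70 to 734 with 1 sample left out. The cause of these shifts was not tested.

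No analysis paired by litter was possible, because the labels do not record litters and the zQ175 and WT samples at 12 months carry different numbers. As the WT mice were littermates, a zQ175 and a WT pool could come from the same litter. The effect of this on the calls was not tested. Between fractions, same-numbered samples correlated at -0.29 to 0.45, over 0.1 in 14 of 24 pairs. Among the 4 samples of the same genotype, 12 of 24 correlated best with their own number, a larger share than the 1 in 4 given by chance. The labels do not say that a number marks 1 pool, so the main fit did not take the numbers as pairs. With the number as a block, 194 genes were called against microglia and 167 against the negative fraction. Among the named genes' values, 1215 of the other alternatives kept direction and side of the threshold, 132 lost the call and 34 gained one. Sall1 became 0.07 and Kdm5d -0.03 with probe sets averaged, and Alas2 ran from -0.58 to 0.11 with 1 sample left out, positive without WT sample 34. None of the 3 was called.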

Other observations

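A set of 12 lower genes was picked after their values were seen, so their shared direction carries no weight. Vegfa, given in the results, is one of them. Genes linked to Notch signalling were Hes5, a transcriptional effector (-0.76 ± 0.18 (SE), adjusted p = 0.0234), Nrarp, a feedback inhibitor (-0.25 ± 0.07 (SE), adjusted p = 0.039), and Lfng, a glycosyltransferase that modifies Notch (-0.48 ± 0.09 (SE), adjusted p = 0.00803). Lfng had levels of 11.84, 11.61, 11.91 and 12.00 in zQ175 samples, against 12.30, 12.30, 12.40 and 12.29 in WT samples. Feedback inhibitors of growth factor signalling were Spry4 (-0.73 ± 0.15 (SE), adjusted p = 0.0122), Spred2 (-0.55 ± 0.12 (SE), adjusted p = 0.0131) and Dusp6, a phosphatase of ERK (-0.61 ± 0.11 (SE), adjusted p = 0.00556). Dusp6 had levels of 10.56, 10.25, 10.26 and 10.37 in zQ175 samples, against 11.18, 10.97, 10.94 and 10.80 in WT samples. Hes5 was no longer called without zQ175 sample 31 or 32 or WT sample 37 (-0.69 to -0.74). Nrarp was no longer called without zQ175 sample 31, 32 or 33 or WT sample 34, 35 or 37 (-0.23 to -0.25), nor without 6-month zQ175 sample 27 or 28 or WT sample 24. 

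Dio2, the deiodinase by which astrocytes activate thyroid hormone, had levels of 11.64, 11.58, 11.34 and 11.57 in zQ175 samples, against 12.13, 11.91, 12.19 and 12.02 in WT samples, which gave a log2 fold change of -0.53 ± 0.10 (SE), adjusted p = 0.00598. Slc7a11, the cystine-glutamate exchanger subunit, had levels of 9.23, 8.80, 9.21 and 9.16 in zQ175 samples, against 9.86, 9.85, 9.74 and 9.85 in WT samples, a change of -0.72 ± 0.15 (SE), adjusted p = 0.0135. Etnppl, an ethanolamine-phosphate lyase of astrocytes, differed by -0.83 ± 0.20 (SE), adjusted p = 0.0218, and the transcription factors Klf15 and Cebpa by -0.54 ± 0.13 (SE), adjusted p = 0.0252, and -0.65 ± 0.18 (SE), adjusted p = 0.0475. Slc7a11 was no longer called without zQ175 sample 31 (-0.63). Etnppl was no longer called without zQ175 sample 30 or 31 or WT sample 34 or 35 (-0.71 to -0.83). Klf15 was no longer called without zQ175 sample 31 or 32 or WT sample 34, 35 or 36 (-0.45 to -0.57). Cebpa was no longer called without zQ175 sample 31, 32 or 33 or WT sample 34, 35 or 36 (-0.59 to -0.67), nor without 6-month WT sample 23 or 24.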
